A study of Mus musculus with 2 samples.

Results

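The transcripts of 6 mouse genes were measured in the hippocampus: the synuclein genes Sncb and Sncg and the Parkinson disease genes Lrrk2, Park7, Pink1 and Vps35. They were taken by gene symbol from the 55536 annotated genes of the tables, and all 6 symbols matched 1 gene each. The tissue, labelled as layer of hippocampus, came from female B6CASTF1/J mice aged 2 months, the first-generation cross of C57BL/6J with the wild-derived strain CAST/EiJ, with no treatment named. Total RNA, 300 ng for each library, was sequenced in 2 libraries that form 1 group, so the design holds no contrast of conditions and no p-value was computed. The labels name the libraries biological replicates 1 and 2 but give both the same donor record, which leaves unstated whether the tissue came from different animals, and part of their spread may be technical.

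Synucleins are small proteins of nerve terminals that bind the membranes of synaptic vesicles. Beta-synuclein (Sncb) is a presynaptic protein of central neurons that does not readily form fibrils, and gamma-synuclein (Sncg) is best known from sensory, motor and catecholamine neurons and from a class of interneurons. Pink1 encodes a mitochondrial kinase that accumulates on damaged mitochondria and marks them for removal. Park7 encodes DJ-1, a small redox-sensitive protein of the cytosol and mitochondria. Vps35 encodes the scaffold of retromer, the coat that returns cargo from endosomes, and Lrrk2 a large kinase that phosphorylates Rab GTPases on membranes. Mutations in Lrrk2 or Vps35 cause dominant Parkinson disease in people, and loss of Park7 or Pink1 a recessive form.

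The reading frames of the synuclein pair are shown because these sister genes lay furthest apart in level among the 6. The coding sequence of Sncb had 399 bases (133 codons) and that of Sncg 369 bases (123 codons), the stop codon not counted. Their first 180 coding bases, 5′ to 3′, from the M21 transcripts are given with capitals at bases that were identical in a global alignment of the whole reading frames.
Sncb: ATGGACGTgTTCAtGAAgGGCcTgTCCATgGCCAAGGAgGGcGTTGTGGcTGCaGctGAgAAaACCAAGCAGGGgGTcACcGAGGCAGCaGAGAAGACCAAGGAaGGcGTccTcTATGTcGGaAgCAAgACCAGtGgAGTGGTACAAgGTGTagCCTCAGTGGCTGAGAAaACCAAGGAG
Sncg: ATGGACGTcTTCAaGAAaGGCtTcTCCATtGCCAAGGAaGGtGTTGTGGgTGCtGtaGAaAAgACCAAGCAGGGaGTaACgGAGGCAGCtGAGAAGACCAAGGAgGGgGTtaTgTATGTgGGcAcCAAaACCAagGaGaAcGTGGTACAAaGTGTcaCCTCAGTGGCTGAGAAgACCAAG
Of 364 aligned bases, 254 (69.8%) were identical, with 40 gap positions left out. The alignment was of bases rather than codons, and 172 of the 177 aligned columns within the bases shown were in frame. The identity was 81.7% over bases 1 to 180 of Sncb, which encode most of the membrane-binding repeats, and 58.2% over bases 181 to 399, which encode the rest of the protein with its acidic tail. The expected counts of all 6 genes were whole numbers in both libraries, to within 0.005 counts, so that no gene total held a fraction of a read. The same was true of 84.9% of detected nuclear protein-coding genes.

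Among the 29 annotated transcripts of the 6 genes, Sncb-204 (ENSMUST00000153829.1, annotated as a retained intron) is shown because it took the largest share of any transcript without a reading frame in the second of 2 quantifications that the authors deposited. Its first exon lies at chr13:54762922-54763067 (mm10, - strand). The 107 bases in capitals belong to an intron of the main transcript Sncb-201 and the 39 bases in lower case to its exon 3.
Sncb-204 first exon: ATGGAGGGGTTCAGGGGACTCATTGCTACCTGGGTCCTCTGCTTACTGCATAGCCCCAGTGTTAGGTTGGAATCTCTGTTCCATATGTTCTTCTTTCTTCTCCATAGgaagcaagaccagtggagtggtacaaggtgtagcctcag
Its other exons hold 119, 90 and 114 bases of exons 4, 5 and 6 of Sncb-201, so the capitals are the only bases of Sncb-204 that Sncb-201 lacks.

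The promoters of Park7 and Pink1 are shown because these genes stood side by side in level. The 250 bases before the RefSeq start of each (GRCm38.p6) are given 5′ to 3′, and capitals mark GCGC followed by any 2 bases and GCGC again, the core of the motif of nuclear respiratory factor 1, a regulator of mitochondrial genes.
Park7 (chr4:150909922-150910171, - strand): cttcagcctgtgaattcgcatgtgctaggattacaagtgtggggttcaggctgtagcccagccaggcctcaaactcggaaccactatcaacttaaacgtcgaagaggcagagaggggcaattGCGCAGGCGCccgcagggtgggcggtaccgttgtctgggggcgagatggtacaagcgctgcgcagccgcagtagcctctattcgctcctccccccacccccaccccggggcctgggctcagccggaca
Pink1 (chr4:138326297-138326546, - strand): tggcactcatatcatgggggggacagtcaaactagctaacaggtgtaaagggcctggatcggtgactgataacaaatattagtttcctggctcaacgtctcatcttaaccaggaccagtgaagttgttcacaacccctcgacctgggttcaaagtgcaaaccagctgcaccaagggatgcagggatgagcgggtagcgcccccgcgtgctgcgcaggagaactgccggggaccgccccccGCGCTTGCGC
The motif, read on both strands and equal to its own reverse complement, occurred 1 time in each of these windows. The last 11 bases of the Pink1 window lie past the start of its main transcript, and the motif falls within them. In Pink1 the motif thus lies before the RefSeq start but inside the main transcript. The motif was absent from the windows of Sncb, Sncg and Lrrk2, and 4.98% of 32851 promoter windows held it. The motif was chosen after these sequences had been seen, and a match shows letters only, not binding. The SP box GGGCGG was present on either strand in all 5 windows, against 32.7% of all windows, the TATA box TATAAA in none (12.4%), and CCAAT only in that of Sncb (33.8%). The windows of the 5 genes held 57.2% to 67.6% G and C, against a median of 52.4%. Lrrk2, at 67.6%, had the most CpG dinucleotides (22) and Sncg the fewest (7), beside a median of 6 over all windows. The last 120 bases of the Sncg window, 49 of the Lrrk2 window and 5 of the Park7 window also lie past the start of the main transcript. Vps35 was not among the windows used.

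Replicate 1 held 29490868 counts on annotated genes and replicate 2 held 30691881, after rounding per gene. With edgeR and an intercept alone, 17782 genes gave a biological coefficient of variation of 4.86%, and a chi-square of 3.59 per degree of freedom over 14527 protein-coding genes showed that the libraries differed by more than read sampling. The 6 genes together took 17088 counts (0.0579%) in replicate 1 and 17268 (0.0563%) in replicate 2. Levels are in TPM, a share of all transcripts that is corrected for transcript length and library depth, and detected means 1 TPM or more in both libraries. Values are from the first quantification, which gives gene tables with an interval for each TPM, unless the second, a transcript table summed here per gene, is named. Against the tissue label, 7 of 7 markers of glutamatergic neurons were detected (39.8 to 1352 TPM), among them Prox1 of dentate granule cells (39.8 ± 5.35) and Fibcd1 of CA1 pyramidal cells (41.5 ± 2.09). Of the markers of GABAergic interneurons other than the CCK and Sncg class 8 of 8 were detected (17.5 to 164 TPM).

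All 6 genes were detected, as were 58.0% of 22015 nuclear protein-coding genes. The order from high to low was Sncb, Pink1, Park7, Vps35, Lrrk2 and Sncg, spanning 127-fold. Sncb stood above 99.3% of nuclear protein-coding genes, Pink1 and Park7 above 96.5% and 96.4%, Vps35 above 91.1%, Lrrk2 above 62.5% and Sncg above 46.3%. Among detected genes alone, Lrrk2 stood above 35.3% and Sncg above 7.45%. The authors' TPM intervals, whose level the files do not state, were separate in both libraries for each pair of neighbours in this order except Pink1 and Park7. The TPM of Sncb and Pink1 lay near the upper bound of its interval in both libraries.

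**Figure D1:**
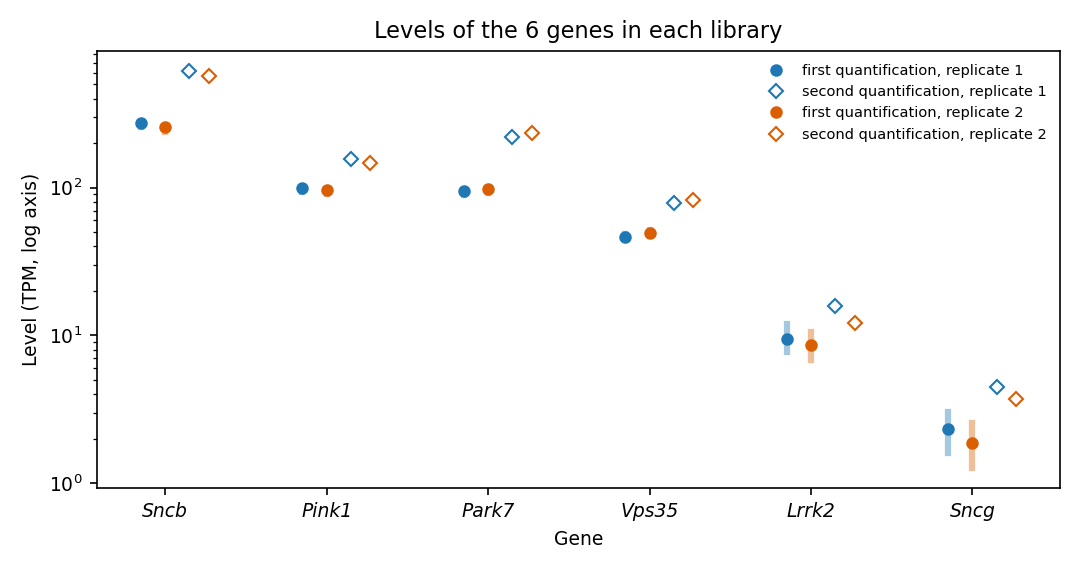
Level of each gene in TPM (log axis) in replicate 1 (blue) and replicate 2 (orange); filled points are the first quantification with the authors' interval as a bar, open diamonds the second. Sncb is the highest and Sncg the lowest in both, and Park7 lies level with Pink1 in the first (96.6 and 97.9 TPM) but above it in the second (227 and 152 TPM).

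**Figure D2:**
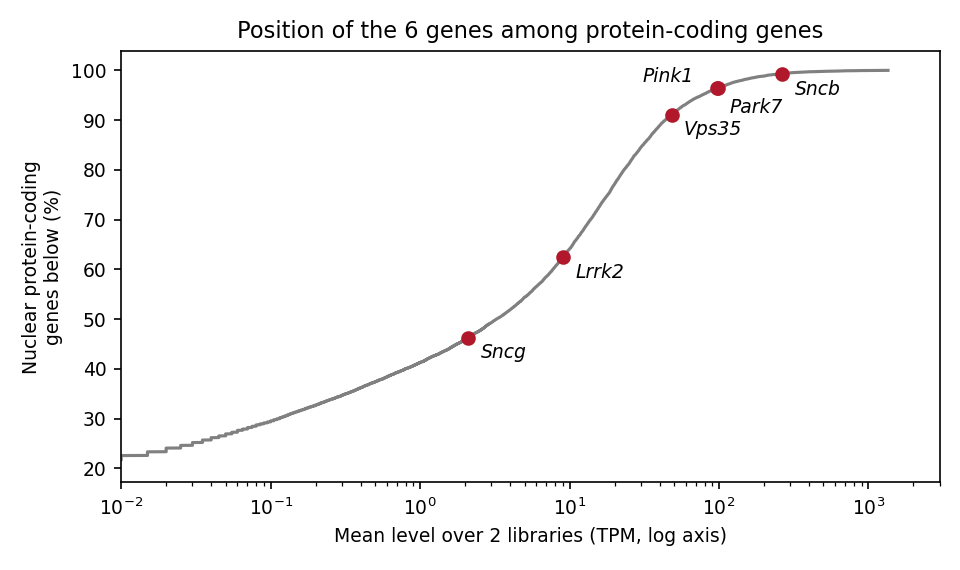
Share of nuclear protein-coding genes below a given mean TPM (log axis, 2 libraries; grey line), with the 6 genes as red points. Sncb lies at 99.3%, Sncg at 46.3%, and Pink1 and Park7 nearly coincide.

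Sncb (ENSMUSG00000034891.13, chromosome 13, 54758860 to 54766595, - strand, mm10) was the most abundant of the 6. It stood at 274 TPM in replicate 1 (6244 counts) and 256 TPM in replicate 2 (6060 counts), a mean of 265 ± 12.9 TPM (SD, n = 2). Both libraries were high, and their intervals, 256 to 276 and 239 to 258 TPM, overlapped at the edge. The main coding transcript Sncb-201 (ENSMUST00000036825.13, 6 exons) held 74.8% ± 0.157 of the gene's TPM. Sncb-204, the retained-intron transcript printed above, held 19.5% ± 0.0737, with 431 and 416 counts, and Sncb-203, which keeps 504 bases after exon 2, held 4.67% ± 0.0922. Sncb-202, a coding transcript with the same coding length of 399 bases, held 0.984% ± 0.323. The transcripts annotated as retained introns were thus seen at nearly the same share in both libraries.

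The share of Sncb-204 depended on the measure. It was 6.88% ± 0.0205 of the expected counts, and 41.8% ± 0.692 of TPM in the second quantification, where its effective length was 151 bases in replicate 1 against 370 in the first. Coding transcripts held 75.8% ± 0.166 of the TPM of Sncb in the first quantification and 55.0% ± 0.700 in the second, beside medians of 87.4% and 85.1% over detected protein-coding genes. As a share of counts the coding part of Sncb was 89.9% ± 0.0803.

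Sncg (ENSMUSG00000023064.4, chromosome 14, 34370274 to 34374789, - strand, mm10) was the lowest of the 6. It has 1 annotated transcript, Sncg-201, of 852 bases in 5 exons. Replicate 1 held 38 counts (exact 95% Poisson interval 26.9 to 52.2) and replicate 2 held 32 (21.9 to 45.2), which gave 2.32 and 1.88 TPM, or 2.10 ± 0.311 (SD, n = 2). The libraries overlapped within counting error, and both lay above the detection limit. Sncb exceeded Sncg by 6.88 on the log2 scale of TPM in replicate 1 and by 7.09 in replicate 2, a mean of 6.99 ± 0.14, or 127-fold. The second quantification gave 7.19 ± 0.10, or 146-fold, from 4.47 and 3.74 TPM for Sncg and 620 and 572 TPM for Sncb.

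Markers of the cells in which Sncg is known were unevenly present. All 10 genes of the list of CCK and Sncg interneurons were detected, from Cck, the peptide cholecystokinin (261 ± 2.48 TPM), down to the vesicular transporter Slc17a8 (1.18 ± 0.0354), and 9 of them lay above Sncg. Cnr1, the cannabinoid receptor of these cells, stood at 70.5 ± 2.96 TPM and Vip at 5.73 ± 0.594. Cck and Cnr1 are also transcribed in other hippocampal neurons. Of 12 dopamine and catecholamine neuron genes 3 were detected, Aldh1a1, Nr4a2 and Ddc, and the defining enzyme Th was at 0.130 and 0.140 TPM. The dopamine transporter Slc6a3 was at 0.140 and 0.0800 TPM, and Foxa2 had 0 counts in both libraries. None of 5 cholinergic and motor neuron genes was detected; Chat was at 0.0600 and 0 TPM. In bulk tissue fewer cells of a type and less RNA per cell cannot be told apart.

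Pink1 (ENSMUSG00000028756.12, chromosome 4, 138313409 to 138326307, - strand, mm10) stood at 100.01 TPM in replicate 1 (4684 counts) and 95.8 TPM in replicate 2 (4662 counts), 97.9 ± 3.01 (SD, n = 2). Park7 (ENSMUSG00000028964.14, chromosome 4, 150897133 to 150914437, - strand, mm10) stood at 94.9 TPM (1627 counts) and 98.3 TPM (1742 counts), 96.6 ± 2.37. Pink1 was the higher in replicate 1 and Park7 in replicate 2. The log2 ratio of Pink1 to Park7 was 0.08 and -0.04 in the libraries, a mean of 0.02 ± 0.08, and their intervals overlapped in both. The transcripts of the mitochondrial kinase and of the redox protein were not separated in level beyond the spread in this quantification.

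In the second quantification the order was clear and the other way. Park7 stood at 221 and 234 TPM and Pink1 at 157 and 146, and the log2 ratio of Pink1 to Park7 was -0.58 ± 0.13. Park7 was 2.35 times as high in the second quantification as in the first and Pink1 1.55 times, around a median of 1.71 over 12766 protein-coding genes. Counts differed little: Park7 had 1713 and 1827 counts in the second quantification, and Pink1 4733 and 4619. Park7 has the shorter transcripts, with an effective length of 790 bases in replicate 1 against 2157 for Pink1. Taking only the main coding transcripts, Pink1-201 and Park7-201, the log2 ratio of Pink1 to Park7 was 0.07 in the first quantification and -0.18 in the second.

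Park7 had 10 annotated transcripts, the most of the 6 genes. Park7-201 (ENSMUST00000030805.13, 189 codons) led in both libraries with 83.6% ± 4.41 of TPM, 86.7% in replicate 1 and 80.4% in replicate 2. Park7-204, which encodes a reading frame of the same length and starts 5′ of the main transcript, followed with 6.18% and 12.1%, from 100 and 211 counts. It was the only Park7 transcript besides Park7-201 to reach 5% in the first quantification. The second gave it 0.0494% ± 0.0409 and assigned 15.4% in replicate 1 and 15.5% in replicate 2 to Park7-206 and 11.2% ± 2.75 to Park7-209, coding transcripts that the first put at 0.539% ± 0.360 and 0.262% ± 0.177. Both quantifications kept Park7-201 in the lead, at 67.6% ± 0.188 in the second, but they named different minor transcripts. Coding transcripts together held 96.1% ± 0.593 of TPM in the first and 97.6% ± 0.406 in the second.

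Pink1 was carried by 2 of its 3 transcripts, all annotated as coding. Pink1-201 (ENSMUST00000030536.12, 580 codons, 8 exons) held 86.8% ± 0.298 of TPM and Pink1-202 the other 13.2% ± 0.298. Pink1-202 has 3 exons that cover the last 3 exons of Pink1-201 and 295 bases of the intron before them, and its annotated coding length is 504 bases against 1740. Pink1-203 had 0 counts in both libraries and both quantifications. All its 1711 bases lie in exons of Pink1-201, but it has 9 exons, so it must hold a splice junction that Pink1-201 lacks. The 0 of Pink1-203 thus rests on how shared reads were assigned and on reads over such a junction. Junction reads were not examined here, so no upper bound is given. The second quantification gave Pink1-202 a share of 10.6% ± 2.23. The microRNA gene Mir7019, of 69 bases, lies within Pink1 on the same strand and had 0 counts in both libraries. The first quantification cut the 438 bases of Lrrk2-205 to an effective length of 339, a larger cut than 69 bases. The 0 of Mir7019 therefore does not say whether it is expressed.

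**Figure D3:**
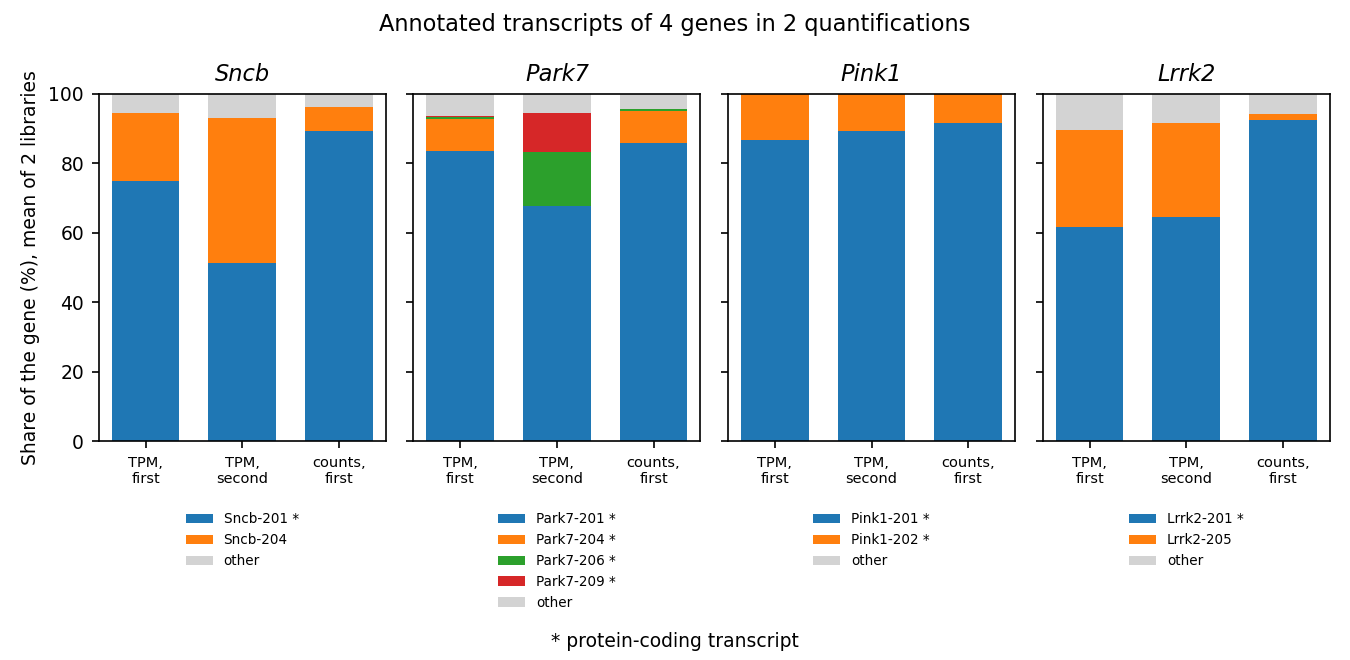
Share of Sncb, Park7, Pink1 and Lrrk2 held by their annotated transcripts (percent, mean of 2 libraries), as TPM in the first and second quantification and in counts of the first; transcripts under 5% of TPM in both are pooled in grey and an asterisk marks coding transcripts. Sncb-204 grows from 19.5% to 41.8% of TPM between quantifications, and Lrrk2-205 is 28.0% of TPM but 1.75% of counts.

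Vps35 (ENSMUSG00000031696.9, chromosome 8, 85260392 to 85299802, - strand, mm10) stood at 46.7 TPM in replicate 1 (3390 counts) and 49.6 TPM in replicate 2 (3694 counts), 48.1 ± 2.03 (SD, n = 2). Park7 exceeded it by 1.01 ± 0.03 on the log2 scale of TPM, or 2.01-fold. The first 171 bases of the gene overlap Orc6, a replication origin factor on the opposite strand, at 11.8 and 11.9 TPM. No source used here says whether the counting used strand, so reads in that overlap are uncertain.

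Lrrk2 (ENSMUSG00000036273.15, chromosome 15, 91673175 to 91816120, + strand, mm10) stood at 9.52 TPM in replicate 1 (1105 counts) and 8.59 TPM in replicate 2 (1078 counts), 9.06 ± 0.658 (SD, n = 2). Vps35 exceeded it by 2.41 ± 0.17 on the log2 scale of TPM, or 5.32-fold, and Lrrk2 exceeded Sncg by 2.11 ± 0.11, or 4.33-fold. Its main transcript is 8275 bases long, with 51 exons and 2527 codons, the longest reading frame of the 6 genes.

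The TPM of Lrrk2 rested in good part on few reads. Lrrk2-201 (ENSMUST00000060642.6) held 61.6% ± 0.288 of the gene's TPM but 92.4% ± 2.03 of its counts, at 5.84 and 5.31 TPM. Lrrk2-205, a transcript of 438 bases with no annotated reading frame, held 32.5% and 23.5% of TPM from 22.8 and 15.5 counts, which is 1.75% ± 0.438 of counts. It has an exon of 33 bases of its own in an intron, and then copies exons 37 to 39 of the 51 exons of Lrrk2-201. In the second quantification it held 26.9% ± 11.4 of TPM from 11.2 and 4.72 counts, and Lrrk2-201 held 64.6% ± 8.72. Lrrk2-202 had 0 counts in replicate 1 and 27.9 in replicate 2, and 0 in both in the second quantification.

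A gene was called apart where replicate 2 and replicate 1 differed by 1 or more on the log2 scale. None of the 6 genes was, and 0.516% of 15509 genes were. Scaled counts were lower in replicate 2 for Sncb (log2 ratio of replicate 2 to replicate 1 -0.11, exact 95% counting interval -0.16 to -0.05), Pink1 (-0.07, -0.13 to -0.01), Lrrk2 (-0.10, -0.22 to 0.02) and Sncg (-0.31, -1.04 to 0.41). They were higher for Park7 (0.04, -0.06 to 0.13) and Vps35 (0.06, -0.01 to 0.13). The counting intervals of Sncb and Pink1 left out 0, and those of the other 4 genes did not. The median size of the log2 ratio over all genes was 0.08, so Sncb, at the 59.4 percentile of sizes, and Pink1, at the 44.8 percentile, differed between libraries about as much as a typical gene. None of the 6 had separate TPM intervals, against 4.38% of genes. By scaled counts, blood genes were higher in replicate 2 for 4 of 4 markers, with summed levels of 328 and 583 TPM. So were 5 of 5 astrocyte markers (428 and 460 TPM summed) and 5 of 5 oligodendrocyte markers (862 and 951 TPM). In TPM the astrocyte gene Aldh1l1 (18.44 and 17.65) and the oligodendrocyte gene Mag (56.85 and 56.46) were lower in replicate 2. The choroid plexus genes Ttr (121 and 65.7 TPM), Kl (4.51 and 4.09) and Folr1 (1.11 and 0.45, from 18 and 6 counts) were lower in replicate 2. The ependymal genes Foxj1 (2.15 and 2.30 TPM) and Ccdc153 (1.26 and 1.60, from 19 and 28 counts) were slightly higher. The log2 ratio of Foxj1, 0.09, was close to the median size over all genes. The part of these cell types in the ratios was not tested. Such ratios compare 2 libraries, and intervals cover counting error only.

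**Figure D4:**
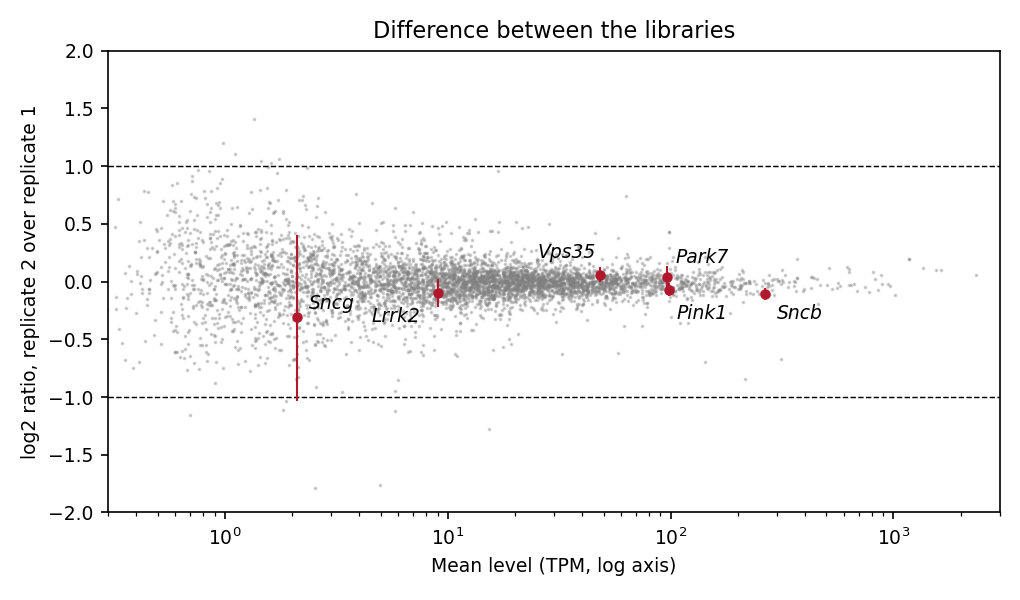
Log2 ratio of replicate 2 to replicate 1 (scaled counts) against mean TPM (log axis) for 1 in 3 of the genes at 1 CPM or more (grey), with the 6 genes in red and their 95% counting intervals as bars; dashed lines mark a log2 ratio of 1 in size, and the axis ends at 2. All 6 lie between the lines, and Sncg has the widest interval, -1.04 to 0.41.

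Partners of the synucleins were abundant. Of 18 genes of presynaptic and chaperone partners 17 passed the detection limit. The median level of the list was 156 ± 2.51 TPM, and 6 of its genes lay above Sncb (5 in the second quantification). The highest were the membrane SNARE protein Snap25 (851 ± 32.1 TPM), the chaperone Hspa8 (823 ± 13.0) and the vesicle protein Syp (688 ± 12.7). Syp was 2.60 times as high as Sncb, and Sncb was 2.56 times as high as Dnajc5, the chaperone of synaptic vesicles. In the second quantification these ratios were 1.82 and 3.29. Sncaip, which encodes synphilin-1, was low at 2.72 ± 0.537 TPM. Slc18a2, the vesicular monoamine transporter, was not detected, at 0.570 and 0.530 TPM.

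Retromer subunits differed in level. The trimer consists of Vps35, Vps29 and either Vps26a or Vps26b. Vps29 stood at 69.4 ± 2.80 TPM, 1.44 times as high as Vps35. Vps26b stood at 42.4 ± 1.36 TPM and Vps26a at 17.5 ± 0.276, so Vps35 was 1.14 times as high as Vps26b and 2.75 times as high as Vps26a. Of the sorting nexins that work with retromer, Snx3 (73.9 ± 0.516 TPM) lay above Vps35. Snx27 (40.3 ± 0.926), Snx1 (31.9 ± 2.16), Snx2 (30.6 ± 1.62), Snx5 (27.3 ± 3.96) and Snx6 (17.1 ± 2.28) lay below it. All 20 genes of the retromer list were detected (median 28.9 ± 1.65 TPM), and 15 lay below Vps35. The highest were the cargo receptor Sort1 (143 ± 3.37 TPM), the late endosomal GTPase Rab7 (122 ± 3.22) and the sorting receptor Sorl1 (76.0 ± 0.714). Between libraries 13 of the 20 were higher in replicate 2 and 7 lower. The same tally was 8 higher and 21 lower for the PINK1 mitophagy list, 5 and 13 for the synuclein partners, 11 and 12 for the LRRK2 list, 9 and 10 for the DJ-1 list, and 12 and 16 for the further Parkinson disease genes. Over 15509 genes it was 7406 higher and 8103 lower.

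Pink1 lay near the top of its pathway. Of 30 genes of the PINK1 mitophagy list 29 were detected (median 36.6 ± 1.17 TPM), and 28 lay below Pink1. The genes above it were the outer membrane channel Vdac1 (204 ± 5.35 TPM) and the autophagy receptor Sqstm1 (173 ± 1.09), followed by the receptor Nbr1 (85.7 ± 0.940). Pink1 was 3.37 times as high as Tomm7, the import pore subunit that holds PINK1 at the outer membrane (29.1 ± 0.396 TPM). It was 4.39 times as high as Parl, the protease that cleaves it (22.4 ± 3.28), 4.28 times as high as the phosphatase Pgam5 and 6.27 times as high as the deubiquitinase Usp30. In the second quantification Pink1 was 5.78 times as high as Tomm7 and 3.94 times as high as Usp30, and 3 listed genes lay above it. Oma1, an inner membrane protease, was lower still at 3.42 ± 0.184 TPM. Calcoco2 was not detected, at 0 and 0.0600 TPM.

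Lrrk2 lay low among its partners. Of 23 listed partners and Rab substrates 22 were detected (median 20.1 ± 1.73 TPM), and 17 lay above Lrrk2 (19 in the second quantification). The highest were the synaptic vesicle GTPase Rab3a (307 ± 6.08 TPM) and the motor scaffolds Mapk8ip3 (164 ± 5.11) and Spag9 (84.9 ± 0.205). The substrates Rab10 (58.1 ± 1.15 TPM), Rab12 (44.1 ± 0.247) and Rab8a (14.8 ± 0.997) were 6.43, 4.87 and 1.64 times as high as Lrrk2, and the phosphatase Ppm1h, which reverses Rab phosphorylation, was 3.20 times as high (5.16 times in the second quantification). Lrrk2 was 2.53 times as high as Rab29, a GTPase that recruits it to membranes (3.58 ± 0.0283 TPM). Its paralogue Lrrk1 fell just short of detection, at 0.970 and 1.22 TPM, and Lrrk2 was 8.31 times as high.

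Park7 stood among the abundant redox genes. All 19 measured genes of the DJ-1, glyoxalase and redox list were detected (median 25.9 ± 2.16 TPM), and 3 lay above Park7. These were the superoxide dismutase Sod1 (150 ± 1.29 TPM, 1.55 times as high) and the peroxiredoxins Prdx5 (146 ± 7.30) and Prdx2 (129 ± 3.95). Park7 was 1.28 times as high as the glyoxalase Glo1 (75.5 ± 3.23 TPM). It was 4.03 times as high as Keap1, the sensor that restrains the antioxidant factor NRF2 (23.9 ± 0.375), and 19.3 times as high as Nfe2l2, which encodes that factor (5.02 ± 0.106). In the second quantification 2 listed genes lay above Park7. There Park7 was 5.97 times as high as Keap1 and 27.9 times as high as Nfe2l2.

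Of 28 further genes linked to Parkinson disease 27 passed the detection limit, and the median of the list was 22.3 TPM. The highest were Psap, the precursor of lysosomal saposins (531 ± 15.6 TPM), Uchl1, a neuronal deubiquitinase (330 ± 22.9), and Chchd2, a mitochondrial protein (171 ± 3.85). The endocytic genes Synj1 (170 ± 6.26 TPM) and Dnajc6 (116 ± 3.51), which shed clathrin from vesicles, lay between Sncb and Park7 in level. In the second quantification Dnajc6, at 177 and 180 TPM, lay below Park7, at 221 and 234. Gch1, the first enzyme of tetrahydrobiopterin synthesis, was not detected, at 0.410 and 0.750 TPM. None of the genes of these pathway lists was called apart between the libraries, beside only 0.516% of 15509 genes, so few calls could occur in lists of this size.

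**Figure D5:**
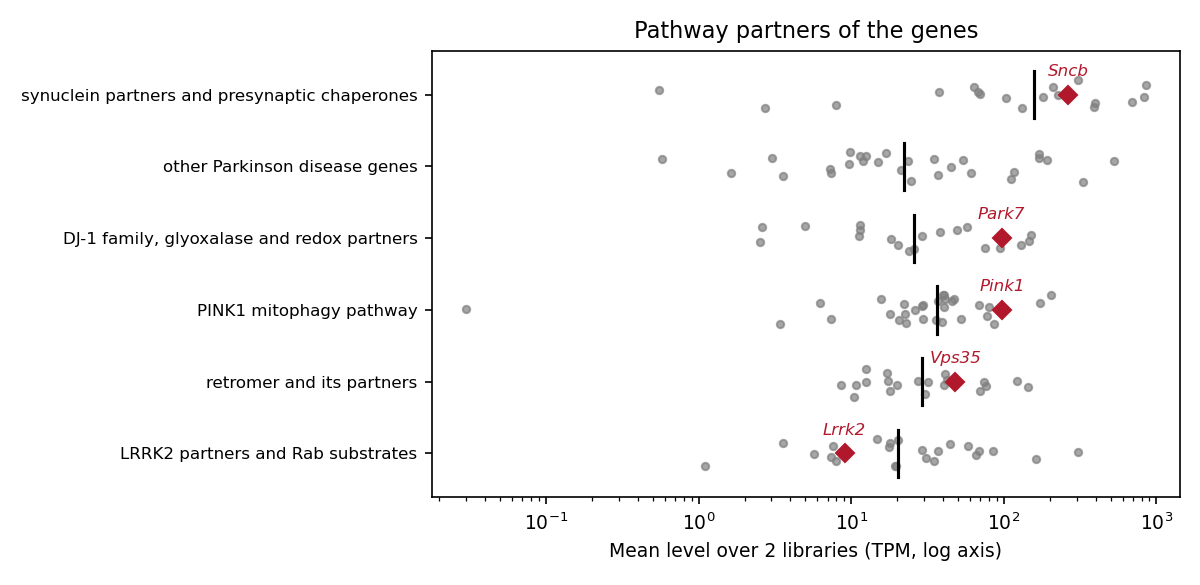
Mean TPM (log axis, 2 libraries) of each gene in 6 pathway lists (grey points, with a black bar at the median), and of the gene each list was built around (red diamond; the list of other Parkinson disease genes has none). Pink1 lies above 28 of 30 listed genes and Lrrk2 above 6 of 23.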

How the data were processed

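Total RNA sequencing of 2 hippocampus libraries was analysed. Per the file headers, the authors' gene and transcript tables give expected counts and TPM, the percent of the gene per transcript, and a score, the bounds of a TPM interval whose level the headers do not give. A further deposited transcript table holds an estimated count and a TPM value and was summed per gene (the second quantification). The notes deposited with the files name assembly mm10 and annotation M21; aligner and counter are not given here. All 55536 gene identifiers matched M21; spike-ins and tRNA entries stayed out.

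Counts were rounded for edgeR 4.0.16 in R 4.3.3: TMM scaling, and 1 common dispersion at a minimum of 10 counts. Ratios between libraries used 0.5 added counts, among genes at a mean of 1 CPM or more. Levels are means ± SD over 2 libraries. Counting intervals are exact 95%. The common dispersion and the call between libraries were tried on simulated data. Alternatives were DESeq2 1.42.0 size factors, other minimums and thresholds, the second quantification, rescaled TPM and each library alone. Promoters come from RefSeq (GRCm38.p6), transcripts from M21. Named were all members, the 3 highest and all undetected genes of each pathway list, direct partners, and transcripts at 5% of TPM or more; Synj1, Dnajc6, further sorting nexins, other partners, markers beyond the first of a list and smaller transcripts were chosen after their values were seen. Members and lists were chosen with earlier results of these data known. Results for some further list genes and transcripts are not given here. Gatd3a found no match. Other tools were matplotlib 3.10.9, scipy 1.17.1, pandas 2.3.3 and numpy 2.4.6 under Python 3.11.15.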

Additional observations from a re-analysis of the deposited data

How the results depend on the processing

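The order of the 6 genes was kept in the second quantification, the rescaled values and either library alone, except that Park7 lay above Pink1 in the second quantification and in replicate 2. In the second quantification the levels of Sncb, Pink1, Park7, Vps35, Lrrk2 and Sncg were 596, 152, 227, 80.0, 13.9 and 4.10 TPM. Rescaled to nuclear protein-coding genes they were 655, 242, 239, 119, 22.4 and 5.20 TPM, and with both changes 819, 208, 312, 110.04, 19.2 and 5.64 TPM. Counting only the leading coding transcript, an alternative chosen after seeing the data, gave 198 TPM for Sncb, 84.9 for Pink1, 80.7 for Park7 and 5.58 for Lrrk2. In the second quantification the log2 ratios of neighbours were 1.97 for Sncb over Pink1, -0.58 for Pink1 over Park7 and 1.51 for Park7 over Vps35. They were 2.53 for Vps35 over Lrrk2 and 1.76 for Lrrk2 over Sncg. The ratio of the highest to the lowest gene, Sncb over Sncg, was 7.19. With leading coding transcripts alone, Sncb over Pink1 was 1.22, Lrrk2 over Sncg 1.41 and Sncb over Sncg 6.57. With both changes these were 1.17 for Sncb over Pink1, -0.18 for Pink1 over Park7, 1.12 for Lrrk2 over Sncg and 6.22 for Sncb over Sncg. The leading transcripts of Sncb, Lrrk2, Park7 and Pink1 held 51.2%, 64.6%, 67.6% and 89.4% of TPM in the second quantification. As shares of counts Sncb-201, Lrrk2-201 and Pink1-201 held 89.3%, 92.4% and 91.6%. The causes of these shifts between quantifications were not tested. Over all genes, 80 were called apart, against 5629 with no filter on low counts, 18 at a minimum of 5 CPM and 629 at a log2 ratio of 0.5. None of the 6 genes was called with a log2 ratio of 0.5, other scalings, 2 added counts or second counts. Depth limits Sncg most, with 38 and 32 counts. No paired analysis was possible because the libraries form 1 group.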
